A study of Rattus norvegicus with 6 samples.

Results

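The 10 genes followed here belong to the cell cycle, and they were measured in the heart muscle of rats after ischemia and reperfusion. They are Mki67, Top2a, Cdk1, Ccnb1, Ccna2, Ccnd1, Ccnd2, Ccnd3, Mcm5 and Mcm6. They were chosen by symbol, and all 10 were found among the 28293 genes of the expression table. Myocardial tissue of 3 sham rats and 3 rats with myocardial ischemia and reperfusion injury (MI/RI) had been sequenced as total RNA. All 6 were male rats labelled WT for genotype, and neither age nor strain is given in the labels. In the MI/RI rats, labelled I/R, the left anterior descending coronary artery was tied for 30 min around a tube, and the heart was taken after 6 h of reperfusion. The labels give 30 min and 6 h for the sham rats as well, and do not say which part of the sham operation lasted that long. The model is a surgical one in whole tissue, which holds cardiomyocytes, fibroblasts, endothelial cells and blood cells together. In such tissue, fewer cells of a type and less RNA per cell cannot be told apart.

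The cell cycle is driven by cyclins, which rise and fall in turn, and by the cyclin-dependent kinases (CDKs) that they switch on. D-type cyclins respond to growth signals and act first, in G1, where their kinases loosen the grip of the retinoblastoma protein on E2F factors. The MCM complex is then loaded on DNA as the helicase of replication, cyclin A accompanies S phase and G2, and cyclin B with Cdk1 starts mitosis. Most cardiomyocytes of the adult heart have left the cycle, so cycling cells in this tissue are few and are mainly not cardiomyocytes. G1 cyclins can also be made in cells that never divide.

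Many genes of the late cycle carry 2 short elements near their start. One is TTTGAA, the core of the cell cycle genes homology region, and the other is the CCAAT box. The stretches of 150 bases before the start of 4 late-cycle members are shown because these members were all highest in sham replicate 2. They are written 5′ to 3′ on the strand of the gene, with lower case for the sequence and capitals for TTTGAA and CCAAT on either strand (TTCAAA and ATTGG on the other one). They come from RefSeq on build GRCr8, which need not be the build of the expression table.
Mki67 (chr1:199952594-199952743, minus strand): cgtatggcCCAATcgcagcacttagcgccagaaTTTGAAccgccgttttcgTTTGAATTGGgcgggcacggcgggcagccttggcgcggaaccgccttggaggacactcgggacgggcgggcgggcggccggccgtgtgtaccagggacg
Top2a (chr10:84473094-84473243, minus strand): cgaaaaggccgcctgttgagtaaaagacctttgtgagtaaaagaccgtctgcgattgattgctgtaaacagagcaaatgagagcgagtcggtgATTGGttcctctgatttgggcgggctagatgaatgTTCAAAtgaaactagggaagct
Cdk1 (chr20:19265143-19265292, plus strand): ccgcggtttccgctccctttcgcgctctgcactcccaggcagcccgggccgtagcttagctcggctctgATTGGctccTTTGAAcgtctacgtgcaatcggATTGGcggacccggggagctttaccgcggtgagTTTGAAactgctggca
Ccnb1 (chr2:33655226-33655375, minus strand): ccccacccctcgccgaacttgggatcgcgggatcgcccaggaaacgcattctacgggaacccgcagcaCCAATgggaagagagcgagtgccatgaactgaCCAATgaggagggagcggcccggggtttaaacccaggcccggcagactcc
In Mki67 the second TTTGAA and an inverted CCAAT box overlap by 1 base. TTTGAA stood 117 and 99 bases before the start of Mki67, 72 and 16 bases before that of Cdk1, and 22 bases before that of Top2a on the opposite strand. In the 250 bases before the start, 3 of the 7 members with an entry in the promoter table held TTTGAA on either strand, and all 7 held CCAAT. Over all 33469 promoters of the same length, 16.2% held TTTGAA and 34.0% held CCAAT. Among 25 promoters of the other genes of G2 and mitosis, 11 (44%) held TTTGAA and 19 (76%) held CCAAT. These are matches of letters, not measured sites of binding, and their part in the levels of these genes was not tested. Ccna2, Ccnd1 and Ccnd2 had no entry.

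The expression table gave FPKM, fragments scaled to the length of the gene and the size of the library, so that levels can be compared between genes and hearts. The values of low genes moved between hearts in whole steps, and from these steps the sham libraries were 1 to 1.18 times as deep as that of sham replicate 1, and the MI/RI libraries 0.873 to 0.935 times. The 13 mRNAs of mitochondrial DNA took 80.1% to 86.2% of the summed FPKM in sham hearts and 61.8% to 71.5% in MI/RI hearts. FPKM are shares of a library, so the changes of the members, and the counts of the gene lists where they differ, are also given after rescaling to the sum without these mRNAs. Cardiomyocyte markers were present in every heart, and their summed level was higher after reperfusion (3465 to 11360 FPKM in the sham hearts, 23350 to 33680 FPKM in the MI/RI hearts), with 6 of 7 markers past the threshold. After rescaling 5 of the 7 were called higher. Of all genes tested, 25.5% were called higher, and 7.25% after rescaling.

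After 6 h of reperfusion the D-type cyclins Ccnd1 and Ccnd2 rose, the late-cycle genes Mki67 and Ccna2 fell, and the other 5 members tested did not pass the threshold of 0.05 on the adjusted p (limma on log2(FPKM + 0.1), adjusted over 10942 genes). Of the members 9 passed the filter of a mean of 0.5 FPKM, and Ccnb1, at a mean of 0.413 FPKM, did not. Mki67, Top2a and Ccna2 passed it through sham replicate 2, without which their means were 0.362, 0.347 and 0.279 FPKM, so the calls of Mki67 and Ccna2 depend on a heart of the group where they are high. Neither was called in the fit without a filter (adjusted p = 0.105 and 0.0954). Of all genes tested, 25.5% were called higher and 7.36% were called lower, against 2 and 2 of the 9 members. In 3 of the 10 members every MI/RI heart lay above every sham heart, and in 3 every MI/RI heart lay below. The share of all genes tested was 37.2% for the first pattern and 13.0% for the second. An exact permutation test of 3 hearts against 3 cannot give a p under 0.1, and it gave 0.1 for those 6 members. The values of all members by heart are plotted on log axes.

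**Figure D1:**
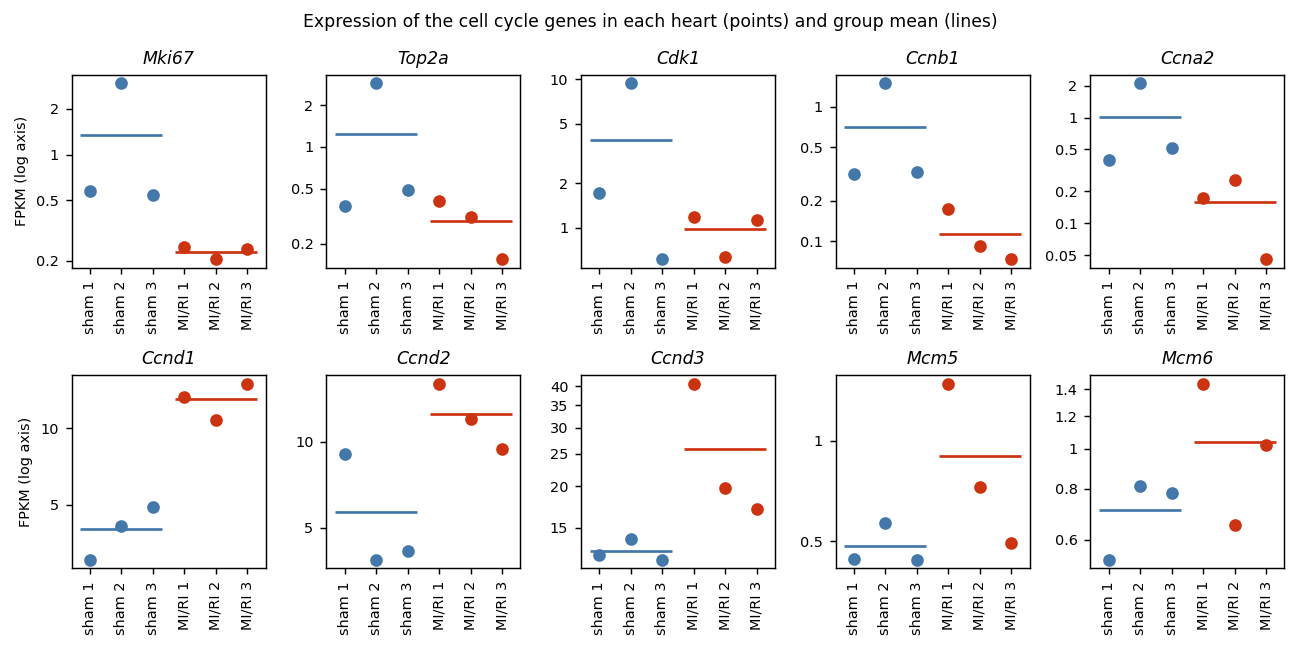
FPKM of each of the 10 genes (log axis) in the 3 sham hearts (blue) and the 3 MI/RI hearts (red), with the group mean as a line. For Mki67, Top2a, Cdk1, Ccnb1 and Ccna2 the sham mean is carried by sham replicate 2, while for Ccnd1, Ccnd2 and Ccnd3 all MI/RI points lie above all sham points.

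Mki67 (ENSRNOG00000028137) encodes Ki-67, which coats the chromosomes of dividing cells and is the usual mark of proliferation. Its level was 0.573, 2.93 and 0.544 FPKM in the sham hearts, in the order of their replicate numbers as throughout, and 0.247, 0.205 and 0.239 FPKM in the MI/RI hearts. The groups did not overlap, and sham replicate 2 lay 5.25 times above the mean of the other sham hearts. The 3 MI/RI hearts were close together (0.230 ± 0.0224 FPKM, SD, n = 3), and the sham hearts were not (1.35 ± 1.37 FPKM, SD, n = 3). On the log2 scale the change was -1.73 (SE 0.58, adjusted p = 0.0434). Without sham replicate 2 it was -0.997 (adjusted p = 0.118), and the call was also lost without any 1 of the MI/RI hearts, where the log2 fold change was -1.77 to -1.68 (adjusted p = 0.0723 to 0.0838). Both other sham hearts were still above all 3 MI/RI hearts, whose mean was 0.413 of theirs.

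Ccna2 (ENSRNOG00000015423), cyclin A2 of S phase and G2, followed the same course. It was at 0.401, 2.11 and 0.515 FPKM in the sham hearts and at 0.175, 0.257 and 0.0455 FPKM in the MI/RI hearts. No MI/RI heart reached a sham heart. It changed by -1.86 on the log2 scale (SE 0.63, adjusted p = 0.0460), and without sham replicate 2 it was -1.20 (adjusted p = 0.170). The call was lost as well without sham replicate 3 (adjusted p = 0.0744), MI/RI replicate 1 (adjusted p = 0.0782) or MI/RI replicate 3 (adjusted p = 0.110). The steps of the values amounted to 50, 311 and 73 fragments in the sham hearts and to 19, 30 and 5 in the MI/RI hearts, so the lowest value rested on very few reads.

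Ccnb1 (ENSRNOG00000058539) encodes cyclin B1, the partner of Cdk1 at entry into mitosis. It was at 0.317, 1.49 and 0.330 FPKM in the sham hearts and at 0.174, 0.0925 and 0.0736 FPKM in the MI/RI hearts, which were all lower. In the fit without a filter its log2 fold change was -1.66 (SE 0.56, adjusted p = 0.0929). That fit covered 19226 genes, of which 11.4% were called higher and 3.32% lower, and of the 10 members only Ccnd1 passed in it. Only 9 to 21 fragments lay behind each MI/RI value of Ccnb1, against 44 to 244 in the sham hearts.

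Top2a (ENSRNOG00000053047), the topoisomerase that untangles sister chromosomes, did not separate the groups. It was at 0.374, 2.88 and 0.489 FPKM in the sham hearts and at 0.405, 0.312 and 0.154 FPKM in the MI/RI hearts. Sham replicate 1 lay below MI/RI replicate 1, and sham replicate 2 was 6.68 times the mean of the other sham hearts. Its log2 fold change was -1.33, with a 95% interval from -2.80 to 0.14 (adjusted p = 0.146).

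Cdk1 (ENSRNOG00000000632), the kinase of mitosis, was at 1.73, 9.38 and 0.615 FPKM in the sham hearts and at 1.18, 0.635 and 1.13 FPKM in the MI/RI hearts. The hearts of both groups were interleaved, apart from sham replicate 2 at 8.0 times the mean of the other sham hearts. The log2 fold change was -1.14, with an interval from -2.81 to 0.53 (adjusted p = 0.263), and -0.12 without that heart. Without sham replicate 3, the lowest of the 6 hearts, it was -1.99 and passed (adjusted p = 0.0468).

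The high level of sham replicate 2 was shared by the mitotic genes as a group. Among the 30 other genes listed for G2 and mitosis, which include mitotic kinases, spindle motors and checkpoint proteins, sham replicate 2 was the highest of the 6 hearts in 26. In 24 of them it was at least 2 times both other sham hearts, and the median gene was 4.83 times their mean. The 30 genes were counted without the filter of 0.5 FPKM, which 17 of them passed, while all genes tested passed it. Of all 10942 genes tested, 2727 were highest of the 6 hearts in sham replicate 2. There 238 (2.18%) were at least 2 times both other sham hearts, and the median was 1.17 times their mean. Sham replicate 1 was at least 2 times both other sham hearts in 3.75% of genes and sham replicate 3 in 0.64%. The summed level of the 30 genes was 17.4, 64.2 and 19.6 FPKM in the sham hearts and 20.1, 16.4 and 11.03 FPKM in the MI/RI hearts. Apart from sham replicate 2, the hearts of both groups were interleaved in this sum. Cdc25b and Wee1, which were not highest in sham replicate 2, gave 5.93 and 4.30 FPKM of the sum in MI/RI replicate 1. Gene by gene, every MI/RI heart lay below every sham heart in 10 of the 30, and above in 1. Of all genes tested, 13.0% lay below in this way and 37.2% above.

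**Figure D2:**
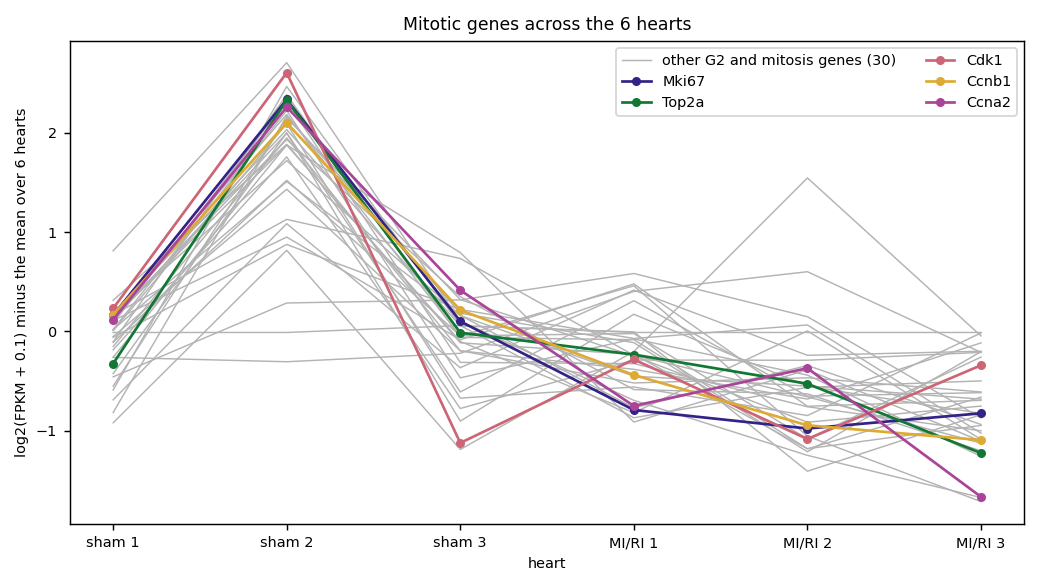
Level of the 5 mitotic members (colours) and of the 30 other genes of G2 and mitosis (grey) in each heart, as log2(FPKM + 0.1) minus the mean of the gene over the 6 hearts. The lines peak in sham replicate 2, where 26 of the 30 genes and all 5 members have their highest value, as do 2727 of the 10942 genes tested.

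No marker listed for other cell types was at least 2 times both other sham hearts in sham replicate 2. The endothelial sum was the highest of the 6 hearts there. The fibroblast and the neutrophil and monocyte sums were the highest of the sham hearts there. No gene listed for cardiomyocytes, fibroblasts, lymphocytes or red cell precursors was highest of the 6 there. At most 2 genes in each of the endothelial, neutrophil and monocyte, and resident macrophage lists were, as were 2727 of the 10942 genes tested. Platelet genes were not among these lists. In the sham hearts the endothelial sum was 171, 224 and 186 FPKM, the lymphocyte sum 11.3, 12.8 and 15.6 FPKM, and the red cell precursor sum 6.81, 7.26 and 8.45 FPKM. After reperfusion these sums lay at 172 to 202, 9.65 to 14.5 and 6.17 to 10.9 FPKM. The neutrophil and monocyte sum was 24.3 to 32.7 FPKM in the sham hearts and 43.8 to 93.2 FPKM in the MI/RI hearts, with 3 of 5 markers tested past the threshold. Resident macrophage markers summed to 58.9 to 68.6 and 76.2 to 95.9 FPKM, with 1 called higher and 2 lower, and fibroblast markers to 420 to 581 and 605 to 669 FPKM, with 2 of 7 called higher. Of all genes tested, 25.5% were called higher and 7.36% lower. After rescaling without the mitochondrial mRNAs these shares were 7.25% and 26.1%, and 1 neutrophil and monocyte marker was called higher and 1 lower. On that scale 4 endothelial, 3 resident macrophage, 2 fibroblast, 2 lymphocyte and 2 red cell precursor markers were called lower. None of these 5 lists had a marker called higher there. The part of these cell types in the levels of the cell cycle genes was not tested.

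Of the other genes of G2 and mitosis, 17 passed the filter, and 3 fell while none rose, where 7.36% of all genes were called lower. In the fit with the replicate block 5 fell, where 8.18% of all genes were called lower. Of the 17, 8 passed through sham replicate 2 and had a mean under 0.5 FPKM without it, against 1.77% of all genes tested, so the count over these genes is partly set by the filter. After rescaling without the mitochondrial mRNAs 11 were called lower, where 26.1% of all genes were. Over all 30 genes, without a filter, 1 was called lower, and it was none of the 3 called with the filter. Of all genes in that fit 3.32% were called lower. The median log2 fold change of the 30 genes was -1.09, against 0.08 over all genes. Leaving out sham replicate 2 as well, the median was -0.38, against 0.15, with no gene called. Ube2c, the ubiquitin-conjugating enzyme of the anaphase-promoting complex, was at 2.14, 8.22 and 1.27 FPKM in the sham hearts and at 0.688, 0.437 and 0.300 FPKM in the MI/RI hearts. Its log2 fold change was -2.41 (SE 0.58, adjusted p = 0.0126, and 0.0522 without a filter). With the filter it stayed past the threshold without sham replicate 2 (-1.66, adjusted p = 0.0342). Bub1, a kinase of the spindle checkpoint, had a mean of 0.299 FPKM outside sham replicate 2 (-1.61, adjusted p = 0.0438, and 0.0819 without a filter). Kif20a, a kinesin of cytokinesis, changed by -1.61 (adjusted p = 0.0378, and 0.0975 without a filter). Bub1 and Kif20a did not stay past the threshold without sham replicate 2 (adjusted p = 0.152 and 0.133). Bub1 failed to pass without any 1 of the hearts other than sham replicate 1 (adjusted p = 0.0665 to 0.152), and Kif20a without sham replicate 3 (0.0994), MI/RI replicate 1 (0.0871) or MI/RI replicate 3 (0.0851) as well. Without that heart and with the filter, Ube2c was the 1 gene of the list called lower. After rescaling, the log2 fold changes of Ube2c, Bub1 and Kif20a were -3.12, -2.23 and -2.27. Foxm1, a transcription factor of the mitotic program, was listed at 0 in 5 of the 6 hearts.

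The genes most like Mki67 over the 6 hearts were Cdkn3, Ckap2, Npas2, Prc1 and Bub1, whose centred log2 profiles differed from that of Mki67 by a root mean square of 0.25, 0.26, 0.27, 0.28 and 0.30. Prc1 and Bub1 are in the list of G2 and mitosis. Npas2, a factor of the circadian clock, was at 0.560, 3.82 and 0.566 FPKM in the sham hearts and at 0.381, 0.427 and 0.321 FPKM in the MI/RI hearts.

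For all 3 D-type cyclins every MI/RI heart lay above every sham heart in FPKM. Ccnd1 and Ccnd2 passed the threshold, and after rescaling without the mitochondrial mRNAs Ccnd1 alone of the 3 did. Ccnd1 (ENSRNOG00000020918), cyclin D1, was at 3.04, 4.11 and 4.88 FPKM in the sham hearts and at 13.2, 10.8 and 15.0 FPKM in the MI/RI hearts. Every MI/RI heart was above every sham heart, and the mean was 3.25 times higher (13.0 ± 2.10 against 4.01 ± 0.928 FPKM, SD, n = 3 each). The log2 fold change was 1.69 (SE 0.25, adjusted p = 0.00309). It passed the threshold without sham replicate 2 (1.72, adjusted p = 0.0202) and after rescaling without the mitochondrial mRNAs (0.91, adjusted p = 0.0367). The values rested on 283 to 517 fragments in the sham hearts and on 942 to 1231 in the MI/RI hearts.

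Ccnd2 (ENSRNOG00000062959), cyclin D2, was at 9.09, 3.86 and 4.13 FPKM in the sham hearts and at 16.0, 12.1 and 9.48 FPKM in the MI/RI hearts. Sham replicate 1 came close to MI/RI replicate 3, and the groups did not overlap. This was a log2 fold change of 1.20 (SE 0.35, adjusted p = 0.0256). It was 0.43 (adjusted p = 0.251) after rescaling without the mitochondrial mRNAs, so the call did not hold on that scale. Without sham replicate 2 it was 0.99 (adjusted p = 0.103), and it did not pass without sham replicate 3 (adjusted p = 0.0907), MI/RI replicate 1 (0.0813) or MI/RI replicate 2 (0.0515).

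Ccnd3 (ENSRNOG00000050258), cyclin D3, had the highest level of the D-type cyclins in every heart. It was at 12.4, 13.9 and 12.0 FPKM in the sham hearts and at 40.7, 19.8 and 17.1 FPKM in the MI/RI hearts. All MI/RI hearts were higher, with MI/RI replicate 1 far above the other MI/RI hearts. The log2 fold change of 0.90 (SE 0.32) did not pass the threshold (adjusted p = 0.0543). With the replicate number as a block it did (adjusted p = 0.0252), which makes 3 members called higher and 2 lower in a fit that called 28.2% of all genes higher and 8.18% lower. It passed without MI/RI replicate 3 too (1.15, adjusted p = 0.0344). After rescaling without the mitochondrial mRNAs the log2 fold change was 0.12 (adjusted p = 0.763).

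**Figure D3:**
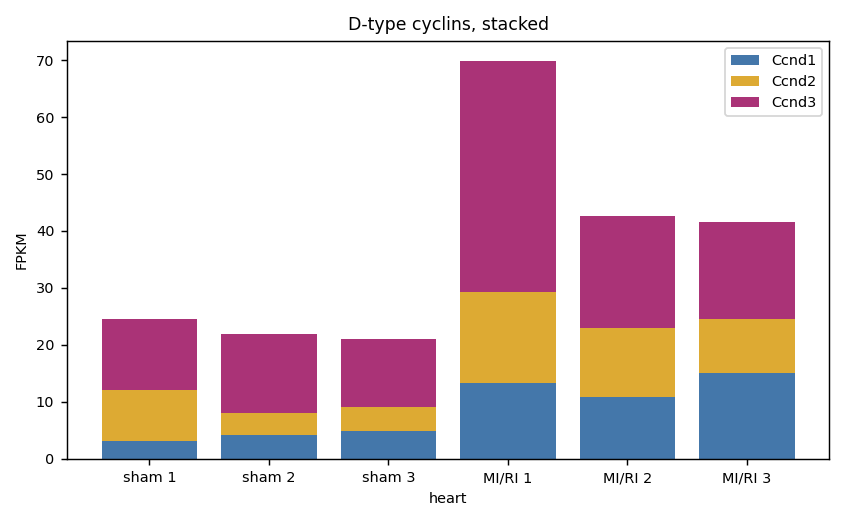
FPKM of Ccnd1, Ccnd2 and Ccnd3 stacked in each heart. The sum lies between 21.0 and 24.5 FPKM in the sham hearts and between 41.5 and 70.0 FPKM in the MI/RI hearts, and Ccnd3 is the tallest part of each bar.

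The 3 D-type cyclins together reached 22.5 ± 1.82 FPKM in sham hearts and 51.4 ± 16.1 FPKM in MI/RI hearts (SD, n = 3 each). The share of each in this sum does not depend on the scaling of a library. Ccnd1 made up 18.1% ± 5.45 of it in sham hearts and 26.8% ± 8.68 in MI/RI hearts (exact permutation test, two-sided, p = 0.2, adjusted p = 0.45 over 3 shares). Ccnd3 made up 57.1% ± 6.47 and 48.6% ± 8.75 (exact p = 0.3, adjusted p = 0.45), and Ccnd2 24.8% ± 10.7 and 24.7% ± 3.11 (exact p = 1, adjusted p = 1). The shares of the groups overlapped for each cyclin.

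The genes most like Ccnd1 over the 6 hearts were Insyn1, Snrpa, Oaf, Angptl2 and RGD1311946, with root mean square differences of 0.15, 0.16, 0.17, 0.18 and 0.20 on the log2 scale. Angptl2, a secreted protein of the angiopoietin-like family, was at 2.99, 5.38 and 6.38 FPKM in the sham hearts and at 18.3, 14.8 and 16.3 FPKM in the MI/RI hearts. Snrpa, a protein of the U1 splicing particle, was at 1.39 to 1.65 FPKM in the sham hearts and at 4.89 to 5.68 FPKM in the MI/RI hearts.

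Mcm5 (ENSRNOG00000014336) and Mcm6 (ENSRNOG00000003703) encode subunits of the replicative helicase. Mcm5 was at 0.442, 0.568 and 0.441 FPKM in the sham hearts and at 1.48, 0.725 and 0.493 FPKM in the MI/RI hearts. MI/RI replicate 3 lay within the sham range, and the log2 fold change was 0.66, with an interval from -0.24 to 1.56 (adjusted p = 0.233). Mcm6 was at 0.537, 0.814 and 0.783 FPKM in the sham hearts and at 1.44, 0.651 and 1.02 FPKM in the MI/RI hearts. The groups overlapped, with a log2 fold change of 0.45 and an interval from -0.32 to 1.21 (adjusted p = 0.341). MI/RI replicate 1 was the highest heart for both, as it was for Ccnd2 and Ccnd3. After rescaling without the mitochondrial mRNAs the direction of both turned, to -0.02 for Mcm5 and -0.26 for Mcm6.

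Of the other genes that license and fire origins of replication, 13 of 21 passed the filter, 3 fell and none rose, with a median log2 fold change of -0.33. After rescaling without the mitochondrial mRNAs 7 were called lower, with a median of -1.06, and without a filter none was. The share of all genes called lower was 7.36%, and 26.1% after rescaling. Those that fell were Orc4 (-0.97, adjusted p = 0.0260) and Orc5 (-0.84, adjusted p = 0.0281), of the origin recognition complex, and Gins4 (-0.84, adjusted p = 0.0346), of the GINS complex that activates the helicase. None of the 3 passed without sham replicate 2 (adjusted p = 0.0709 to 0.0933), sham replicate 3 (0.0929 to 0.124), MI/RI replicate 2 (0.0510 to 0.0623) or MI/RI replicate 3 (0.0618 to 0.111), and Orc5 did not without MI/RI replicate 1 either (0.0641). Among the genes of DNA synthesis, 14 of 18 passed the filter, 2 rose and none fell, and the median was 0.06, while 25.5% of all genes were called higher. After rescaling the balance turned, with none called higher, 4 called lower and a median of -0.65. Pcna, the sliding clamp of DNA polymerases, was at 5.02, 8.91 and 5.07 FPKM in the sham hearts and at 13.1, 15.4 and 12.1 FPKM in the MI/RI hearts. Its log2 fold change was 1.13 (SE 0.27, adjusted p = 0.0128). Pola2, a subunit of the primase complex, rose by 0.95 on the log2 scale (adjusted p = 0.0323). Pcna did not pass without sham replicate 3 (adjusted p = 0.0540), and Pola2 did not without sham replicate 2, sham replicate 3, MI/RI replicate 1 or MI/RI replicate 2 (adjusted p = 0.0709 to 0.125). Neither passed after rescaling without the mitochondrial mRNAs (0.35 and 0.18).

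Ahead of these steps stand the CDK inhibitors and the retinoblastoma family. Of the 7 inhibitors 5 were tested, and 3 fell while none rose, in this fit and after rescaling. Of all genes tested, 7.36% were called lower in this fit and 26.1% after rescaling. Without a filter 2 of the 7 inhibitors were called lower, where 3.32% of all genes were. Cdkn1b, which encodes p27, was at 10.2, 17.1 and 17.2 FPKM in the sham hearts and at 6.79, 5.92 and 4.40 FPKM in the MI/RI hearts (log2 fold change -1.34, SE 0.28, adjusted p = 0.00771). Cdkn1c, which encodes p57, fell by 1.21 on the log2 scale (adjusted p = 0.00891), and Cdkn2c, which encodes p18 and blocks the kinases of the D-type cyclins, fell by 1.42 (adjusted p = 0.0146). These 3 were below every sham heart in every MI/RI heart, a pattern of 13.0% of all genes tested. All 3 passed without sham replicate 2 and after rescaling, and Cdkn2c did not pass without a filter (adjusted p = 0.0518).

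Cdkn1a, which encodes p21, had the widest spread of the inhibitors in the sham group. It was at 21.9, 24.1 and 2.298 FPKM there, with sham replicate 3 far below the others, and at 35.7, 40.1 and 25.3 FPKM in the MI/RI hearts, all higher. The log2 fold change of 1.61 (SE 0.74) did not pass (adjusted p = 0.118), and it passed with the replicate number as a block (adjusted p = 0.0193). Rb1, the retinoblastoma gene, fell by 0.92 on the log2 scale (adjusted p = 0.0172). It did not pass without sham replicate 2 (0.0572) or MI/RI replicate 3 (0.0599). The repressive factors E2f4 and E2f6 rose, by 0.96 (adjusted p = 0.0196) and by 1.83 (adjusted p = 0.00457). E2f6 was at 6.95, 6.38 and 4.18 FPKM in the sham hearts and at 32.3, 17.5 and 15.3 FPKM in the MI/RI hearts, and it passed after rescaling (1.05, adjusted p = 0.0127), while E2f4 did not (0.19). E2f4 did not pass without sham replicate 3 (adjusted p = 0.0836) or MI/RI replicate 2 (adjusted p = 0.0616) either. Of 15 genes of the retinoblastoma and E2F families 14 were found by symbol, all but E2f1, and 7 were tested, with a median of 0.04. Of these 7, 2 were called higher and 1 lower, and after rescaling 1 higher and 2 lower (median -0.72). Of all genes tested, 25.5% were called higher and 7.36% lower, and after rescaling 7.25% and 26.1%. Of the 6 G1 kinases and E-type cyclins 3 were tested and none passed. After rescaling 1 of these 3 was called lower. Cdk4, the kinase of the D-type cyclins, was at 3.67, 4.46 and 4.45 FPKM in the sham hearts and at 7.37, 4.79 and 5.78 FPKM in the MI/RI hearts (log2 fold change 0.49, interval from -0.04 to 1.01, adjusted p = 0.137).

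**Figure D4:**
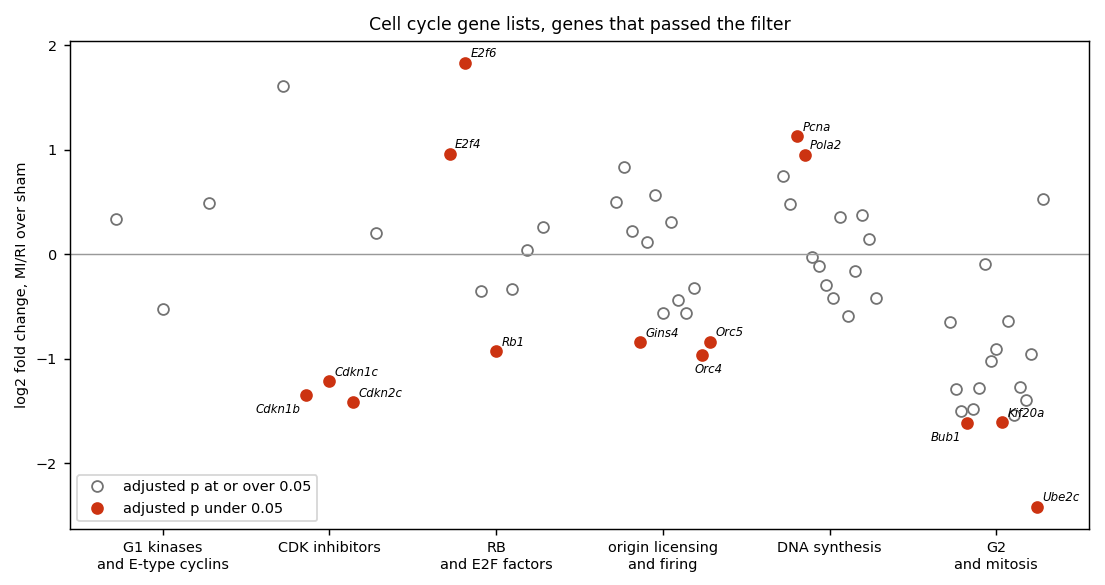
Log2 fold change of MI/RI over sham for each gene that passed the filter, by cell cycle list, with genes past an adjusted p of 0.05 in red and named. The calls of the inhibitors and of G2 and mitosis lie below 0, those of DNA synthesis lie above it.

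Rescaling without the mitochondrial mRNAs moved the median log2 fold change over all genes from 0.29 to -0.46 and the balance of calls from 25.5% higher and 7.36% lower to 7.25% higher and 26.1% lower. On that scale Ccnd1 was the 1 member called higher, and 4 members were called lower: Mki67 (-2.37), Top2a (-1.97), Cdk1 (-1.86) and Ccna2 (-2.45). Mki67, Top2a and Ccna2 entered that fit through sham replicate 2. After rescaling without a filter none of the 4 was called (adjusted p = 0.0540 to 0.174). Without sham replicate 2, 17.5% of genes were called higher and 2.82% lower, Ccnd1 was again called higher, and no member was called lower. The fold changes of all members other than Mcm5 and Mcm6 kept their sign in all alternatives run for them, which for Ccnb1 were the fits without a filter. Ccnd1 was the member whose call held after rescaling and without each of the 6 hearts in turn, with the filter kept. In the fits without a filter Ccnd1 did not pass without sham replicate 2 (1.72, adjusted p = 0.0857) or after rescaling (0.91, adjusted p = 0.0921).

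**Figure D5:**
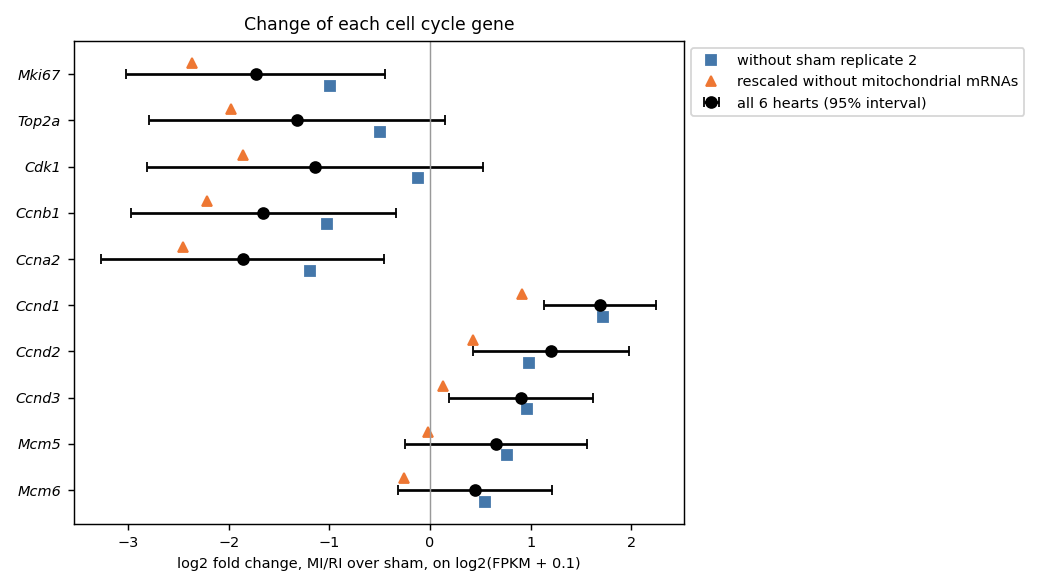
Log2 fold change of MI/RI over sham for each member with all 6 hearts (black, 95% interval from limma), without sham replicate 2 (blue squares) and after rescaling without the mitochondrial mRNAs (orange triangles), with Ccnb1 taken from the fits without a filter. The squares of the 5 mitotic genes lie nearer to 0, the triangles lie below the black points for all 10 genes, and Ccnd1 stays above 0 in all 3.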

How the data were processed

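Myocardial RNA of 3 sham and 3 MI/RI rats was analysed from 1 table of FPKM values. The authors deposited these FPKM per gene and sample, already divided by gene length and library size. The submitters' processing notes name STAR and HTSeq, and the genome build and annotation are not given in the sources used here. The library kit was stranded.

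Rows with the same symbol were summed (30452 rows, 28293 genes). Log2(FPKM + 0.1) of the 10942 genes with a mean of at least 0.5 FPKM was compared with limma 3.58.1 in R 4.3.3 (intensity trend, Benjamini-Hochberg over all genes tested, adjusted p under 0.05), and a fold change on this scale understates that of low genes. A two-sided exact permutation test over the samples was used for single values. The limma step was tested on simulated data. The labels number the samples of a group without saying how they were taken, so p-values measure only the spread between these samples, which may be technical.

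Fragments behind a value were read from the whole steps of FPKM between samples (all of 2000 low genes gave whole numbers within 0.01), up to a common divisor, and cover counting error only. Total depth is unknown. No count test was run.

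The titles of the samples number the replicates of each group. Samples with the same number deviated together from their group means (correlation across genes 0.20, 0.12 and 0.12 for numbers 1 to 3), each over 0.1, while sham replicate 3 and MI/RI replicate 2 correlated as closely (0.12), so a blocked fit on this number is given where it changes a call.

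The members and the gene lists were chosen with earlier results of these data known. The genes named are all members, the called genes of each cell cycle list (at most 4 in each, here all of them), Cdkn1a, Cdkn1b, Cdk4, Pcna and Foxm1, and the 5 genes with the profile nearest to Mki67 and to Ccnd1. A member under the filter was given from the fit without one. E2f1, Pln, Alas2, Hbb, Hba1 and Hba-a1 were not found by symbol. Motifs were searched in the 250 bases before the start in RefSeq promoters (GRCr8), where 7 of the 10 members matched by symbol. The alternatives were other pseudocounts and filters, other scalings, no trend, the block, the highest row of each symbol, and leaving out each rat. The fits without a filter that also left out sham replicate 2 or rescaled were chosen after seeing the data.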

Additional observations from a re-analysis of the deposited data

How the results depend on the processing

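Of the members, 2 were called higher and 2 lower. Leaving out each heart in turn gave 1 to 3 higher and 0 to 2 lower, and 1528 to 2557 genes higher and 309 to 881 lower over all genes, against 2790 and 805. The replicate block gave 3 and 2 members, with Ccnd3 and Cdkn1a gained, and Ckap2 and Prc1 among the genes like Mki67, and changed no other call of a named gene. With a pseudocount of 1 no member was called lower (0, and 783 genes), and with 0.01 there was 1 (784 genes). TPM gave 3 members and 3449 genes higher, and 0 members and 504 genes lower. With a mean of at least 5 FPKM, 3 members and 3784 genes were tested. It gave 3 members and 1892 genes higher, and 0 members and 166 genes lower. Centring on the median gave 1 member and 2020 genes higher, and 2 members and 1554 genes lower. Quantile normalization gave 1 member higher and 1 lower, with 1441 genes higher and 1559 lower. Rescaling without the mitochondrial mRNAs gave 1 member higher and 4 lower (793 and 2857 genes), and turned Mcm5 to -0.022, Mcm6 to -0.26 and Cdk4 to -0.28, with or without a filter. Without a filter 1 member was called higher and 0 lower. Without a filter and with rescaling it was 0 and 0 members and 502 and 1915 genes, with 5 members at an unadjusted p under 0.05. Without a filter and without sham replicate 2 limma called 0 members and 0 of 19226 genes, with 3 members and 5132 genes at an unadjusted p under 0.05. The cause of these losses was not tested. The difference in the share of Ccnd2 (-0.11 percentage points) lay between -3.66 and 6.02 when 1 heart was left out, and turned positive without sham replicate 1, MI/RI replicate 1 or MI/RI replicate 3. A fit that leaves out 1 heart has 2 hearts in that group. The lowest values of Ccna2 and Ccnb1 rested on 5 and 9 fragments, which limits their precision.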

Other observations

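Sham replicate 2 stood apart in more than the lists of the cell cycle. Of 136 genes tested that were at least 2 times both other sham hearts there and highest of the 6 hearts, 21 (15.4%) were in the members and cell cycle lists, which is 30.9% of the 68 listed genes tested, against 1.24% of all genes tested. Of the listed genes tested, 3 of 9 members and 8 of 17 genes of G2 and mitosis passed the filter through this heart. Of all genes tested, 1.77% did. The share of 30.9% is therefore partly set by the filter. The genes named from here on were chosen after their values were seen. Further genes of mitosis and chromosome segregation were among the 136. Pimreg was at 0.415, 3.86 and 0.366 FPKM in sham replicates 1 to 3 and at 0.0148 to 0.222 FPKM in the MI/RI hearts. Pttg1, which encodes securin, was at 0.458, 4.495 and 0.678 FPKM and at 0.134 to 0.549 FPKM. Pclaf, a PCNA-binding factor, was at 0.174, 3.41 and 0.581 FPKM and at 0.197 to 0.358 FPKM.

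Some genes of the circadian clock stood apart in the same heart, and others did not. Arntl, which encodes the clock factor BMAL1, was at 1.37, 5.05 and 1.03 FPKM in sham replicates 1 to 3, so it was 4.20 times the mean of the other sham hearts in sham replicate 2, and Npas2 was 6.78 times that mean. Dbp, an output gene of the clock, was at 6.70, 2.13 and 15.9 FPKM, 5.29 times lower in sham replicate 2 than the mean of the others. Per3 was at 1.41, 0.567 and 2.05 FPKM and Ciart at 1.24, 0.212 and 0.662 FPKM, both lowest in sham replicate 2. Nr1d2 (4.445, 2.38 and 10.5 FPKM), Tef (5.69, 2.305 and 6.13 FPKM) and Hlf (0.201, 0.059 and 0.308 FPKM) were also lowest there. Clock, at 0.684, 1.88 and 1.03 FPKM, was highest there. Per1, at 10.4, 9.92 and 3.34 FPKM, lay within the range of the other sham hearts there. Nr1d1, at 1.70, 1.47 and 5.35 FPKM, was lowest of the sham hearts there but close to sham replicate 1. Per2, at 7.09, 4.88 and 5.93 FPKM, was lowest of the sham hearts there. No list of clock genes was tested. In MI/RI replicates 1 to 3 Arntl was at 0.434, 0.958 and 0.752 FPKM and Dbp at 49.2, 17.6 and 26.5 FPKM. The labels give no time of day for the collection of the hearts.

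Some genes of platelets and megakaryocytes were high in sham replicate 2 and also in MI/RI replicate 3. Pf4 was at 18.3, 62.4 and 18.7 FPKM in the sham hearts and at 14.0, 18.6 and 50.5 FPKM in the MI/RI hearts, and Clec1b was at 2.09, 12.4 and 2.95 FPKM and at 1.16, 1.67 and 10.4 FPKM. MI/RI replicate 3 did not share the high mitotic genes, with Mki67 at 0.239 FPKM and Top2a at 0.154 FPKM there. Whether platelet content had a part in the levels of the mitotic genes was not tested.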
